A study of Mus musculus with 8 samples.

Results

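The genes described here are 10 genes of the cytoskeleton and the cell membrane whose transcripts are known to be more abundant in effector and memory T cells than in naive ones: S100A4, S100A6, S100A10, S100A11, ANXA1, ANXA2, LGALS1, CRIP1, VIM and AHNAK. They were chosen by this shared property from 46625 gene names in the table of counts, at a time when results of the same host comparison were already known. Their host differences are therefore given as a description and support no statement about the list. All 10 were found in the table, which spells symbols in upper case, and 6 passed the filter on low counts.

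The libraries came from 8F10 cells, which are CD4 T cells carrying a transgenic receptor for an insulin peptide. Marrow from 8F10 donors (CD45.2), lacking the T cell receptor alpha chain and depleted of T and B cells, was transferred into NOD or B16A hosts (CD45.1) that had been irradiated below the lethal dose, so the hosts could keep blood cells of their own. NOD mice make native insulin. B16A mice are on the NOD background and make only an insulin altered at 1 position of the B chain, which the 8F10 receptor does not recognise. The strain was NOD/ShiLtJ in all samples, and the labels give no ages. After 6 weeks the 8F10 cells were sorted from inguinal lymph nodes, and RNA of the sorted cells was amplified and sequenced. Each host group had 4 libraries, 1 in each of 4 batches. The comparison asks whether cells that mature in a host with native insulin differ from cells in a host without it.

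S100 proteins are small calcium sensors that dock onto other proteins, and annexins are calcium-dependent proteins that bind acidic membrane lipids. The 2 families meet in the complex of S100A10 with annexin A2, which links membrane to cortical actin and to the very large scaffold protein AHNAK. Galectin-1 (LGALS1) is a secreted lectin that binds galactose-containing glycans, CRIP1 is a small LIM-domain protein, and vimentin (VIM) forms the intermediate filaments of lymphocytes. In naive T cells several of these genes are held low, and they are part of the programme that antigen-experienced cells share.

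Total counts were 4896593 to 6137666 in batches 1 to 3, and 28301805 (NOD) and 28094237 (B16A) in batch 4. Batch 4 detected fewer genes, 19751 and 20723 against 29729 to 33175. The 10 marker genes of CD4 T cells summed to 4860 to 9280 counts per 1000000 counts (CPM) in batches 1 to 3 and to 16000 and 12200 CPM in batch 4. For 12 markers of monocytes, macrophages and neutrophils, cells in which most of the genes studied here are abundant, the sums were 64.2 to 114 CPM in batches 1 to 3 and 11.5 and 11.2 CPM in batch 4, where 5 of the 12 were at 0 in both libraries. For 9 stromal markers the sums were 15.9 to 49.4 CPM and 4.26 and 2.77 CPM, and 2 of them, PDPN and CCL19, were at 0 in all 8 libraries. The sums for NK cells and CD8 T cells went the other way, each through 1 gene. The sums of 5 NK cell markers were 6.54 to 11.9 CPM in batches 1 to 3 and 20.3 and 41.6 CPM in batch 4. Those of 2 CD8 T cell markers were 65.3 to 121 CPM and 186 and 123 CPM. KLRD1 made up most of the NK sums in batch 4, at 19.6 (NOD) and 41.1 CPM (B16A). CD8B1 made up most of the CD8 sums. The other markers of these 2 lists had lower mean log2 CPM in batch 4 than in batches 1 to 3. The differences were -1.39 for NCR1, -1.40 for KLRB1C, -2.14 for EOMES, -3.57 for KLRE1 and -2.33 for CD8A. Because batch 4 stands apart, results are given with and without it.

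The 10 genes fell into abundant and scarce ones, and the split ran through the families. Per kilobase of merged exons, the median over the 8 libraries was 58.2 CPM for CRIP1, 54.4 for S100A10, 36.1 for LGALS1 and 27.6 for VIM. The next gene, S100A11, stood at 2.98 CPM per kilobase, followed by ANXA2 (1.33), AHNAK (0.764), ANXA1 (0.475), S100A6 (0.29) and S100A4 (0). VIM lay above S100A11 in 8 of 8 libraries, so the gap between the fourth and the fifth gene was seen in every library. Neighbours that did not keep 1 order were CRIP1 and S100A10 (CRIP1 higher in 4 of 8 libraries), S100A11 and ANXA2 (7 of 8), AHNAK and ANXA1 (7 of 8), ANXA1 and S100A6 (6 of 8), and S100A6 and S100A4 (5 of 8). The merged exons of CRIP1 span 2280 bases, whereas its longest coding transcript has 516. On the length of the longest coding transcript, a scale chosen after the data were seen, CRIP1 stood at 257 CPM per kilobase and S100A10 at 96.2, and CRIP1 was higher in 8 of 8 libraries. VIM (59.6) then came before LGALS1 (40.7), in 6 of 8 libraries, and ANXA2 (3.43) before S100A11 (2.98), in 4 of 8.

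**Figure D1:**
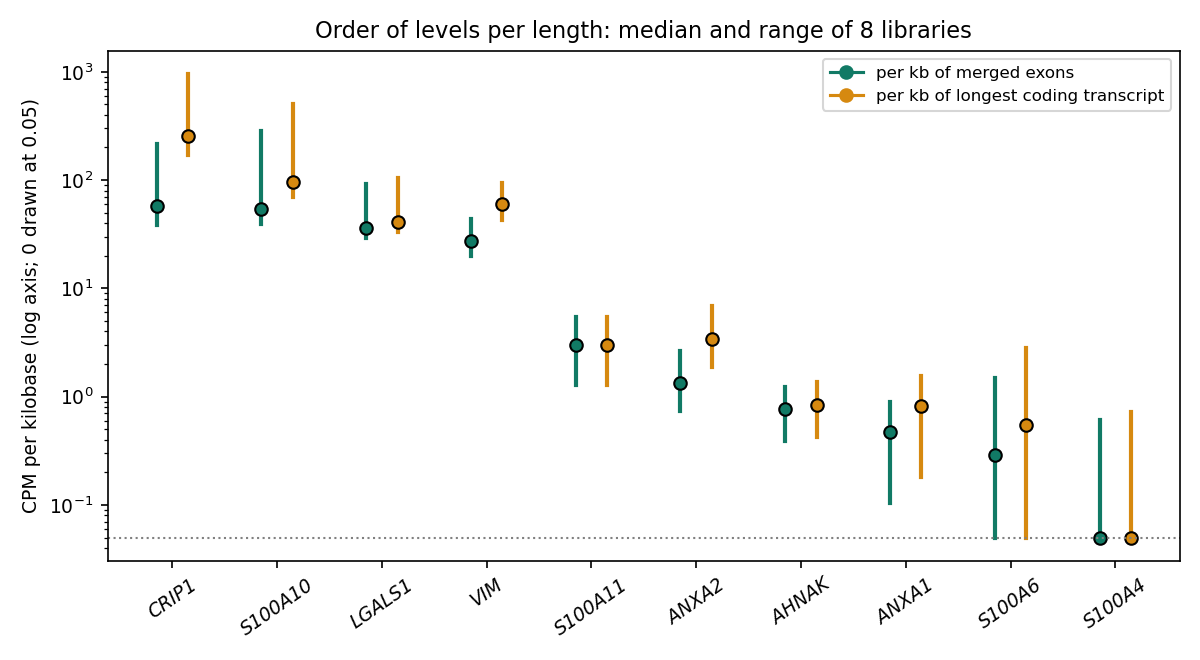
CPM per kilobase (log axis) of the 10 genes, as the median (point) and range (line) of the 8 libraries, with the length taken from merged exons (green) or from the longest coding transcript (orange); values of 0 are drawn at 0.05. The 4 genes on the left lie above 19 CPM per kilobase in every library on either length, and the other 6 have medians under 4.

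The promoters of 2 abundant and 2 scarce genes are shown as examples, and they do not stand for their classes. They are RefSeq sequences of build GRCm38.p6, from 250 bases before to 50 bases after the RefSeq gene start, 5′ to 3′ on the gene's strand, which is the plus strand for all 4. The RefSeq start can differ from the GENCODE gene start printed with the values: the CRIP1 and VIM windows lie inside the GENCODE gene, whose outermost transcript begins upstream. CRIP1 lies at chr12:113151762-113152061 and VIM at chr2:13574061-13574360, and both are abundant here. S100A4 at chr3:90603520-90603819 and its neighbour S100A6 at chr3:90612644-90612943 are scarce. Capitals mark matches to 6 motifs on either strand, which may overlap. The GC box was searched as GGGCGG and the KLF box as CACCC. The RUNX motif was searched as TGTGGT and the TATA box as TATAAA. The AP-1 motif was searched as TGANTCA, and the CArG box by its usual pattern.
CRIP1: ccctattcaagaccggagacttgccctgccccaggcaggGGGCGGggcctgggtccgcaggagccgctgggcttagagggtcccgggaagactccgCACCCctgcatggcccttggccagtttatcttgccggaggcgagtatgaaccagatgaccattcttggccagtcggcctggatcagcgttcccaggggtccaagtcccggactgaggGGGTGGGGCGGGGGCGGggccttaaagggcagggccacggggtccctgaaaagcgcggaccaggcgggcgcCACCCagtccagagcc
VIM: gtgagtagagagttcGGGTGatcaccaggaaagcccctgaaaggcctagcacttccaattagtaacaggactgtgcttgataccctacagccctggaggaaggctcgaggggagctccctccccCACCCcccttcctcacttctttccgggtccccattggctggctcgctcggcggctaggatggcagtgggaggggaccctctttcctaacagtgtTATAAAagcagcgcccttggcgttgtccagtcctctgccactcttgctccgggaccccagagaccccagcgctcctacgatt
S100A4: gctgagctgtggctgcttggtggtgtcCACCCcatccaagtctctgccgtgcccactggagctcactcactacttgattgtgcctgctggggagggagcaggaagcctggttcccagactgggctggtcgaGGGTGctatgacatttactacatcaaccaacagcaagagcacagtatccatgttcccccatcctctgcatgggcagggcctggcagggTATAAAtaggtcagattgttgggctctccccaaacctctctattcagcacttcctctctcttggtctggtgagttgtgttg
S100A6: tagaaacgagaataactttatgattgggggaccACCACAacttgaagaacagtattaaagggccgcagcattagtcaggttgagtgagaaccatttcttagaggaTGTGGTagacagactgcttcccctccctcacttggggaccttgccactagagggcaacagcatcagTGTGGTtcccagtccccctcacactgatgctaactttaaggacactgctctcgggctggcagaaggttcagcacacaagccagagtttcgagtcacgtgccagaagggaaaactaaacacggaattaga

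The CRIP1 promoter held 3 GC boxes and 3 KLF boxes, with a GC content of 68.3% against a median of 52.7% over all 32851 promoters given. VIM and S100A4 each held 2 KLF boxes and 1 TATA box and no GC box, although VIM was abundant and S100A4 nearly undetected. S100A6 held 3 RUNX matches and none of the other motifs. A GC box is present in 35.7% of all promoters of this length, a KLF box in 57.5%, a RUNX match in 16.8%, a TATA box in 13.6%, an AP-1 match in 7.8% and a CArG box in 1.6%. Of the 10 genes 8 had a promoter among these sequences, S100A10 and LGALS1 being the others. Of these 8 genes, 4 held a GC box, 5 a KLF box, 4 a TATA box, 2 (S100A11 and ANXA2) an AP-1 match, 1 a RUNX match and 0 a CArG box. The genes with a GC box were the abundant CRIP1 and the scarce S100A11, ANXA2 and AHNAK. GC content was 61.7% for S100A11, 63.7% for ANXA2 and 67.3% for AHNAK, above the 59.3% of VIM. It was 55.3% for S100A4, 49.3% for S100A6 and 47.3% for ANXA1. A match describes letters and is not a binding site.

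CRIP1 (chr12, 113146316 to 113153879, mm10) had the highest mean CPM of the 10. It stood at 123, 107, 193 and 493 CPM in the NOD libraries of batches 1 to 4 and at 88.6, 87.1, 143 and 414 CPM in the B16A libraries. Within each batch the NOD library was the higher one, while across batches the ranges of the hosts overlapped. The means were 229 ± 180 and 183 ± 156 CPM (SD, n = 4 each), and the log2 ratios within batches 1 to 4 were 0.47, 0.29, 0.44 and 0.25. The log2 fold change was 0.32 (SE 0.68), which did not pass by the quasi-likelihood test of edgeR (adjusted p = 0.9999). With the batch as a term edgeR gave 0.36 (SE 0.13, unadjusted p = 0.0132, adjusted p = 0.762).

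VIM (chr2, 13573927 to 13582826) had the opposite sign in batches 1 to 3. The NOD libraries held 93.6, 125, 93.6 and 206 CPM and the B16A libraries 130, 152, 132 and 185 CPM, in batches 1 to 4. All 3 NOD libraries of batches 1 to 3 lay below all 3 B16A libraries, and batch 4 went the other way. The log2 ratios were -0.47, -0.28, -0.49 and 0.15. Over all 8 libraries the means were 130 ± 53.2 and 150 ± 25.7 CPM (SD, n = 4 each), and edgeR gave a log2 fold change of -0.21 (SE 0.32, adjusted p = 0.9999). In batches 1 to 3 with the batch as a term VIM did not pass either, at -0.41 (SE 0.15, edgeR unadjusted p = 0.00878, adjusted p = 0.33). CRIP1 in the same fit had a log2 fold change of 0.40 (adjusted p = 0.349).

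S100A10 (chr3, 93555080 to 93564643) encodes p11, the light chain of the annexin A2 complex and the S100 protein that has lost calcium binding. It stood at 51.8, 48.8, 71.7 and 347 CPM in NOD hosts and at 47.3, 60.1, 74.3 and 281 CPM in B16A hosts, batches 1 to 4. In batches 1 to 3 the hosts overlapped, and both batch 4 libraries lay far above the rest. Its log2 ratios changed sign between batches (0.13, -0.30, -0.05 and 0.30), and its log2 fold change was 0.17 (SE 0.83, edgeR adjusted p = 0.9999).

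ANXA2 (chr9, 69453620 to 69491795), the annexin that pairs with S100A10, was much scarcer than its partner. The NOD libraries held 3.44, 6.92, 6.86 and 9.86 CPM and the B16A libraries 2.74, 5.15, 4.53 and 4.78 CPM. As for CRIP1, the NOD library was higher in 4 of 4 batches (log2 ratios 0.31, 0.41, 0.58 and 1.02), and the hosts' ranges overlapped only through the NOD library of batch 1. The means were 6.77 ± 2.62 and 4.30 ± 1.07 CPM (SD, n = 4 each), and edgeR gave a log2 fold change of 0.66 (SE 0.47, adjusted p = 0.9999). Per kilobase of merged exons, S100A10 exceeded ANXA2 in every library. The ratio was 46.3, 21.7 and 32.2 in NOD hosts and 53.2, 35.9 and 50.5 in B16A hosts in batches 1 to 3, and 108 and 181 in batch 4. On the length of the longest coding transcript it ran from 14.9 to 124.

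LGALS1 (chr15, 78926725 to 78930465) showed no common direction. It stood at 27.2, 26.6, 35.8 and 67.8 CPM in NOD hosts and at 29.4, 36.4, 29.0 and 83.3 CPM in B16A hosts. The NOD library was the lower one in batches 1, 2 and 4 and the higher one in batch 3. The log2 fold change was -0.18 (SE 0.47, edgeR adjusted p = 0.9999).

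AHNAK (chr19, 8989284 to 9076914) has the longest transcript of the 10, 18100 bases in its longest coding form. It stood at 7.74, 24.7, 16.8 and 13.6 CPM in NOD hosts and at 14.6, 17.3, 14.4 and 15.8 CPM in B16A hosts. The NOD libraries included both the lowest and the highest value of the 8, and the B16A libraries lay close together. The log2 fold change was 0.01 (SE 0.36, edgeR adjusted p = 0.9999).

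**Figure D2:**
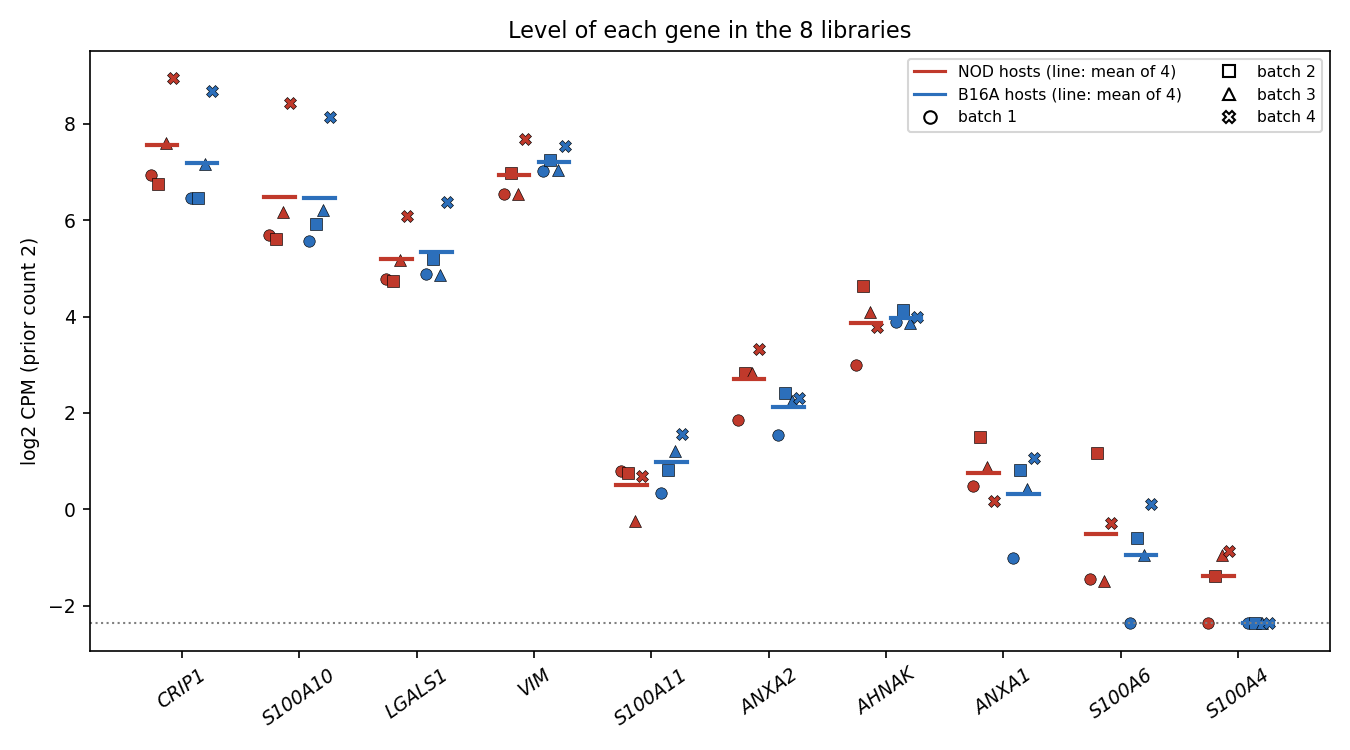
Log2 CPM (prior count 2) of the 10 genes in each library, NOD hosts in red and B16A hosts in blue, with marker shape for the batch, a short line at the mean of 4 and a dotted line at the value of 0 counts. The batch 4 crosses stand above the other markers for CRIP1, S100A10, LGALS1 and VIM, and all 4 B16A markers of S100A4 lie on the dotted line.

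The 4 genes that did not pass the filter on low counts were S100A11, ANXA1, S100A6 and S100A4, and they were not tested. S100A11 (chr3, 93520488 to 93526287), an S100 protein that binds annexin A1, stood at 1.55, 1.50, 0.654 and 1.43 CPM in NOD hosts and 1.07, 1.56, 2.10 and 2.77 CPM in B16A hosts. ANXA1 (chr19, 20373428 to 20390944), the annexin known as a glucocorticoid-induced anti-inflammatory protein, stood at 1.20, 2.62, 1.63 and 0.941 CPM and at 0.304, 1.56, 1.13 and 1.89 CPM. S100A6 (chr3, 90612882 to 90624181), known as calcyclin, stood at 0.172, 2.06, 0.163 and 0.627 CPM and at 0, 0.468, 0.324 and 0.88 CPM. For each of these 3 genes the ranges of the hosts overlapped, and the sign of the within-batch ratio was not the same in all batches.

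S100A4 (chr3, 90603771 to 90606045), a promoter of cell motility and a common marker of memory T cells, was nearly undetected. It had 0, 1, 2 and 8 reads in the NOD libraries of batches 1 to 4 and 0 reads in each B16A library. Over the pooled libraries of a host this was 0.244 CPM in NOD hosts, on raw totals, while 0 reads of 46049826 in B16A hosts allow up to 0.0651 CPM (3 counts over the group, counting error only). The pooled NOD value was 3.75 times this limit, a figure that leaves out the counting error of the 11 NOD reads. Of the 11 reads, 8 came from the NOD library of batch 4. Without batch 4 the NOD libraries held 3 reads in all, which is at the floor, and no fold is given.

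The counts of 2 of the scarce genes are uncertain. In the GENCODE vM21 annotation 51.7% of the exon bases of S100A4 also belong to Gm42674 on the same strand, and 41.1% of the 50-base words in S100A11 transcripts also occur in the pseudogene Gm12854, which had 17 reads over the 8 libraries. Reads from such stretches could have been discarded or given to the other gene. For S100A6, ANXA1 and the abundant genes the overlap and the shared words were 0%, and for ANXA2 the shared words were 1.4%.

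The scarce genes were set beside genes of cells that the sort should remove, per kilobase of merged exons. In batches 1 to 3 the median stromal marker stood at 0.365 CPM per kilobase and the median marker of monocytes, macrophages and neutrophils at 1.53. In those libraries S100A11 (2.98) lay above both medians, AHNAK (0.789) and ANXA1 (0.475) lay between them, S100A6 (0.181) lay below the stromal one and ANXA2 (1.30) just below the myeloid one. In batch 4 these medians were 0.0088 and 0.0154 CPM per kilobase, and ANXA2 (2.64 and 1.28), AHNAK (0.681 and 0.794), S100A11 (2.81 and 5.41), ANXA1 (0.323 and 0.648) and S100A6 (0.459 and 0.644), NOD and B16A, lay above them. The highest marker of these myeloid cells, CD68, stood at 13.4 CPM per kilobase in batches 1 to 3 and at 4.78 in batch 4. Of the scarce genes only S100A11 lay above CD68, in the B16A library of batch 4. S100A4 had a median of 0 in batches 1 to 3, and in batch 4 it stood at 0.614 CPM per kilobase in the NOD library and at 0 in the B16A library. The part of other cells in the levels of the scarce genes was not tested.

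No gene of the 6 tested was called between hosts, beside a share of 0% called among all 14607 genes tested (edgeR without a batch term, 34 genes at an unadjusted p under 0.05, 0 of them among the 6). In that edgeR fit the adjusted p was 0.9999 for every gene tested, so it does not tell the 6 from any other gene. With the batch as a term edgeR also called 0% of all genes and 0 of the 6, with 857 genes at an unadjusted p under 0.05, CRIP1 among them. In batches 1 to 3 with the batch as a term 0.204% of 15716 genes were called and again 0 of the 6. Beside CRIP1 and VIM, that fit gave log2 fold changes of 0.46 (SE 0.44) for ANXA2, -0.02 (SE 0.26) for AHNAK, -0.07 (SE 0.17) for S100A10 and -0.08 (SE 0.20) for LGALS1, and a median of -0.04 beside 0.02 over all genes it tested. In the fit of all batches without a batch term, fold changes were positive for 4 of the 6 (ANXA2, CRIP1, S100A10 and AHNAK). The median of the 6 there was 0.09, beside 0.03 over all tested genes. With the batch as a term and all batches kept, the median of the 6 was -0.03, beside 0.01 over all tested genes. Within batches 1 to 4 the median log2 ratio of the 6 was 0.01, 0.00, 0.26 and 0.20, with 3, 3, 4 and 4 of them higher in the NOD library. CRIP1 and ANXA2 had the NOD library higher in 4 of 4 batches, as did 7.43% of all tested genes, and none of the 6 had it lower in all batches (6.85% of all).

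**Figure D3:**
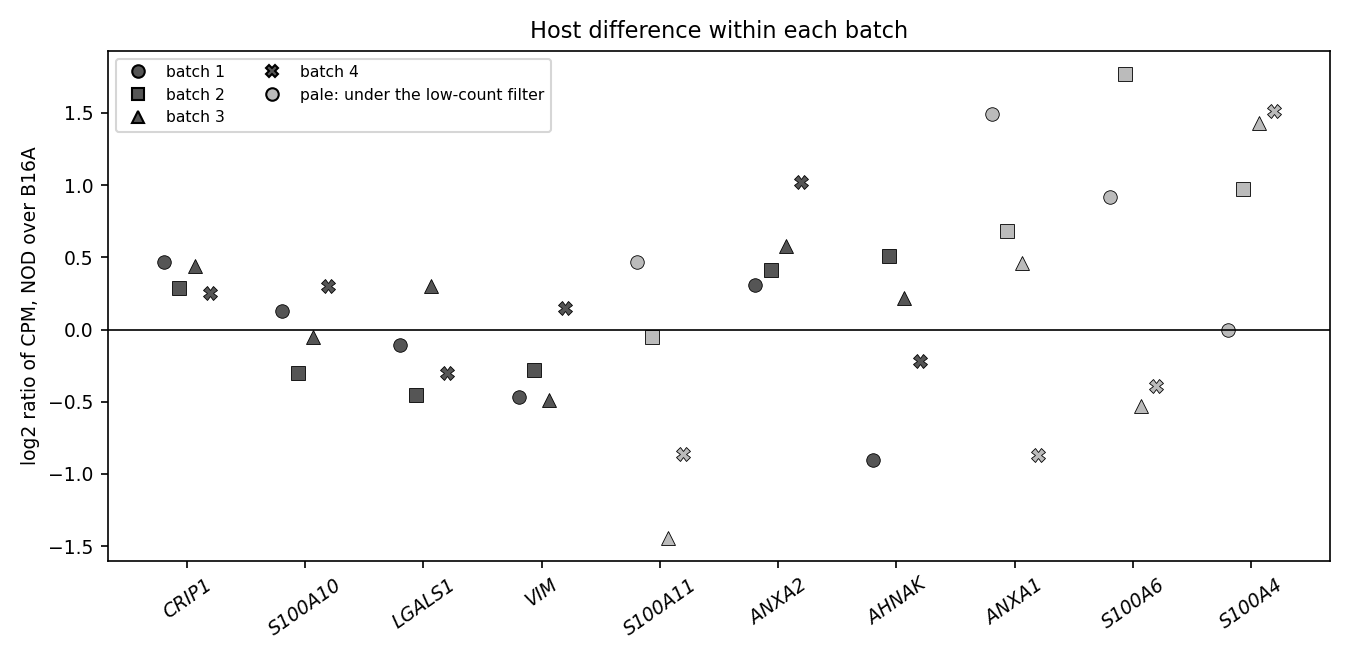
Log2 of NOD CPM over B16A CPM for each gene and batch (marker shape); each marker is 1 pair of libraries and has no error bar, and pale markers are genes under the low-count filter. The 4 markers of CRIP1 and of ANXA2 lie above 0, and the batch 1 to 3 markers of VIM lie below 0.

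Summed markers of other cells overlapped between the hosts, and their part in the host differences was not tested. The sums of the 12 myeloid markers were 11.5 to 114 CPM in NOD and 11.2 to 69.9 CPM in B16A hosts, those of the 9 stromal markers 4.26 to 49.4 and 2.77 to 30.9 CPM, and those of 8 B cell markers 4.03 to 32.0 and 3.44 to 15.5 CPM. The lowest sum of each range is from batch 4, so these ranges overlap whatever the other batches hold. Without a batch term 0 of these markers were called. Fold changes were positive for 8 of 9 tested myeloid, 4 of 5 stromal and 4 of 4 B cell genes. Their median log2 fold changes were 0.22, 0.29 and 0.60, beside 0.03 over all tested genes. In bulk samples fewer cells of a type and less RNA per cell cannot be told apart.

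Levels of the abundant genes differed more between batch 4 and the other batches than between hosts. Both batch 4 libraries lay above the other 6 for CRIP1, S100A10, LGALS1 and VIM, that is for 4 of the 6 tested genes, as for 31.8% of all tested genes. Among genes with a mean of at least 10 CPM the share was 47.5%, beside 4 of 5 of the genes studied here. No member had both batch 4 libraries below the others, as 40.4% of all tested genes did. The mean log2 CPM of batch 4 exceeded that of batches 1 to 3 by 2.42 for S100A10, 1.93 for CRIP1, 1.30 for LGALS1 and 0.71 for VIM, with a median of -0.27 over all tested genes. For ANXA2 the difference was 0.53 and for AHNAK -0.04. With DESeq2 size factors the median over all tested genes moved to -0.41, and the differences of S100A10 (2.27), CRIP1 (1.78), LGALS1 (1.15) and VIM (0.56) kept their sign. Batch 4 also differs in depth, in detected genes and in the summed markers of other cells, and the part of these in its higher levels was not tested.

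**Figure D4:**
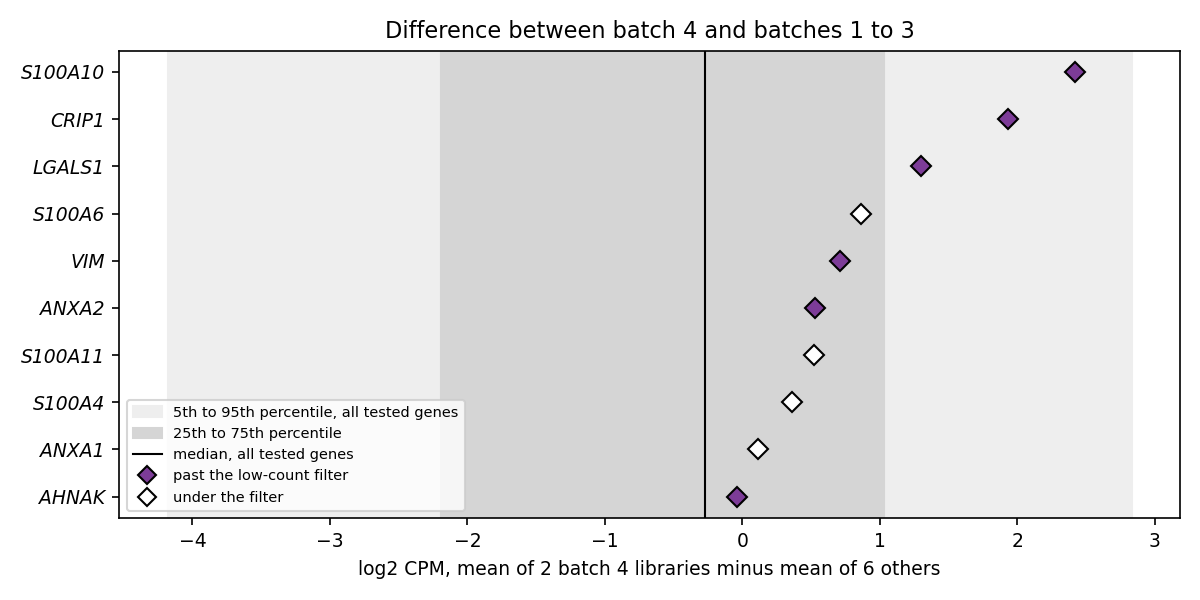
Mean log2 CPM of the 2 batch 4 libraries minus that of the other 6 for each gene (filled, past the low-count filter; open, under it), over the 5th to 95th and 25th to 75th percentiles and the median (-0.27) of all tested genes. S100A10 (2.42), CRIP1 (1.93) and LGALS1 (1.30) lie above the 75th percentile, and AHNAK (-0.04) is the lowest of the 10.

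The tested genes did not vary as 1 block. Over all 8 libraries log2 CPM of S100A10 correlated with that of CRIP1 (r = 0.96) and LGALS1 (0.95), which batch 4 dominates. Over the 6 libraries of batches 1 to 3 S100A10 and CRIP1 had r = 0.71, ANXA2 and AHNAK 0.67, and CRIP1 and VIM -0.71. The gene most like the mean log2 CPM of the 6 genes over those 6 libraries, among 9714 compared, was DDX3Y (r = 0.981, and 0.912 over all 8), followed by TMCC3 (0.976 and -0.0653) and NUP93 (0.976 and 0.689). DDX3Y is a Y-linked RNA helicase gene and had 0 (NOD) and 0.152 CPM (B16A) in batch 1, against 15.6 to 541 CPM in the other 6 libraries. The mean of the 6 genes was likewise lowest in batch 1, at 4.80 and 4.90 log2 CPM against 5.23 to 5.40 in batches 2 and 3. Not every gene followed this mean. In NOD hosts AHNAK (7.74 CPM) and ANXA2 (3.44 CPM) were lowest in batch 1, whereas CRIP1, S100A10 and LGALS1 were lowest in batch 2. VIM stood at 93.6 CPM in the NOD libraries of both batch 1 and batch 3. In B16A hosts ANXA2, S100A10 and VIM were lowest in batch 1, and AHNAK, CRIP1 and LGALS1 were not. The 2 libraries of a batch are not independent, so these correlations are descriptions.

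Relatives of the 10 genes also spanned a wide range, and none was called between hosts. Among other S100 genes 3 of 12 were tested, with 0 called in either direction, 2 positive fold changes and a median of 0.17. S100A13, an S100 protein that takes part in unconventional secretion, ranged from 5.46 to 28.9 CPM in batches 1 to 3, and its highest batch 4 value was 224 CPM. Its NOD library was higher in 4 of 4 batches (log2 ratios 0.63, 0.64, 0.66 and 0.06, log2 fold change 0.17, SE 1.30, edgeR adjusted p = 0.9999). With the batch as a term S100A13 had a log2 fold change of 0.47 (SE 0.17, edgeR adjusted p = 0.775), and in batches 1 to 3 of 0.65 (SE 0.23, adjusted p = 0.326). S100G, a calcium-binding protein of the gut, stood at 4.24 ± 1.44 and 5.09 ± 1.91 CPM (SD, n = 4 each). S100A8 and S100A9, the subunits of calprotectin in neutrophils, named after their values were seen, stood at no more than 0.324 and 1.31 CPM in any library.

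Of 10 other annexins 5 were tested and 0 called, with 4 positive fold changes and a median of 0.27. ANXA6, the annexin with a doubled core, stood at 491 ± 145 and 404 ± 53.1 CPM (SD, n = 4 each), above ANXA1 and ANXA2 in CPM. ANXA5, which binds exposed phosphatidylserine, ranged from 16.7 to 32.7 CPM in batches 1 to 3 and reached 272 CPM in batch 4, and ANXA7 stood at 7.67 to 14.7 CPM and reached 42.8 CPM. Of 8 other galectins measured 4 were tested and 0 called, 2 of them with a positive fold change. LGALS9 stood at 164 ± 125 and 144 ± 36.2 CPM, LGALS8 at 52.4 ± 13.7 and 52.9 ± 16.6 CPM and LGALS4 at 19.2 ± 7.10 and 15.4 ± 2.54 CPM in NOD and B16A hosts (SD, n = 4 each). LGALS9 reached 351 CPM in the NOD library of batch 4, whereas its log2 fold change in batches 1 to 3 with the batch as a term was -0.35 (SE 0.16, edgeR adjusted p = 0.547). Among 16 genes of LIM proteins, filaments and linkers, 14 were tested and 0 called, with a median log2 fold change of 0.03. In that list TAGLN2, an actin-binding transgelin, had the NOD library higher in 4 of 4 batches (0.21, 0.12, 0.15 and 0.72), and FLNA, an actin cross-linker, stood at 524 ± 115 and 695 ± 345 CPM (SD, n = 4 each). PLP2, a small membrane protein, stood at 5.05 ± 3.01 and 3.22 ± 0.535 CPM (SD, n = 4 each).

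Naive T cell genes were abundant and most effector genes scarce in both hosts. Of 28 effector and memory genes 19 were tested and 0 called, with a median log2 fold change of 0.21 beside 0.03 over all tested genes, and 0.20 with the batch as a term. Among those with a mean of at least 4 CPM, RORA, SELPLG and IL18R1 had the smallest unadjusted p without a batch term, with log2 fold changes of -0.40, -0.31 and -0.41 (edgeR adjusted p = 0.9999) and the NOD library higher in 0, 0 and 1 of 4 batches. Other genes of the list had the opposite sign. CCR6, a chemokine receptor gene with a mean of 3.13 CPM, had a log2 fold change of 1.19 (SE 1.05), and ID2, a transcriptional inhibitor gene, had 0.50 (SE 0.20, edgeR adjusted p = 0.811) with the batch as a term. Both were higher in the NOD library in 4 of 4 batches, CCR6 by a log2 ratio of only 0.01 in batch 3. CCR6 did not pass the low-count filter in batches 1 to 3. Both genes are named after their values were seen. The effector genes TBX21, IFNG and GZMB, named after their values were seen, reached at most 2.43, 1.46 and 1.25 CPM in any library. Other genes of the same list were abundant. SELPLG ranged from 374 to 704 CPM, ITGA4 from 232 to 448 CPM and CD44 from 74.6 to 172 CPM. ITGA4 and CD44 are also named after their values were seen. All 16 naive T cell genes were tested and 0 called, with a median log2 fold change of -0.05, or -0.14 with the batch as a term. In batches 1 to 3 with the batch as a term 1 of them, the interleukin-7 receptor gene IL7R, was called (log2 fold change 0.86, SE 0.15, edgeR adjusted p = 0.00371), and its within-batch log2 ratio was -0.57 in batch 4. IL7R is named after its values were seen. FOXO1, which sustains naive T cell homing genes, stood at 668 ± 81.5 and 865 ± 158 CPM (SD, n = 4 each) and was higher in the NOD library in 0 of 4 batches. IGFBP4, a secreted binding protein of insulin-like growth factors, stood at 40.2 ± 7.18 and 57.5 ± 24.1 CPM, and ACTN1, an actin cross-linker, at 387 ± 299 and 286 ± 78.6 CPM (SD, n = 4 each). Their NOD library was higher in 1 and 2 of 4 batches. Per kilobase of merged exons in batches 1 to 3, the median naive gene stood at 79.4 CPM and the median effector and memory gene at 0.916 CPM. CRIP1 (50.3), S100A10 (46.2), LGALS1 (32.3) and VIM (26.9) lay between these medians, as did S100A11 (2.98) and ANXA2 (1.30), and AHNAK (0.789), ANXA1 (0.475) and S100A6 (0.181) lay under the lower one. In batch 4 the medians were 168 and 1.53 CPM. There S100A10 (286 and 232) and CRIP1 (216 and 181), NOD and B16A, lay above the naive median. LGALS1 (75.1 and 92.3) and VIM (43.5 and 39.1) lay between the 2 medians. On the length of the longest coding transcript CRIP1 stood at 222 CPM per kilobase in batches 1 to 3. The list medians were not computed on that length.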

How the data were processed

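RNA of 8 samples was measured, 4 per host. The authors deposited raw read counts per gene symbol as 1 table of whole numbers, with library totals of 4896593 to 28301805. STAR, HTSeq, DESeq2 and mm10 come from the submitters' processing notes, without versions; annotation and strand setting are not stated in the sources used here. Per the labels' protocols, amplified cDNA was sequenced as single reads of 50 bases.

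The test was that of edgeR 4.0.16 under R 4.3.3 (robust glmQLFit, glmQLFTest, filterByExpr, TMM) over 14607 of 46625 genes, with Benjamini-Hochberg adjustment and a threshold of 0.05. Standard errors were derived from the F statistic. CPM uses TMM-scaled totals, and log2 CPM a prior count of 2. Alternatives were a batch term, DESeq2 1.42.0, limma 3.58.1 voom, DESeq2 size factors, no filter, and libraries or batches left out. Code was tested on simulated data. The genes, lists and tests were chosen with earlier results of these data known. All 10 genes are named. Of each related list up to 3 genes, those of smallest p without a batch term and with mean CPM of 4 or more, are named. Other genes were ranked by Pearson r with the mean log2 CPM of the 6 tested genes over batches 1 to 3.

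The labels give each number as a batch, so the batch numbers pair the samples. Deviations from the group means correlated between same-batch libraries with r = 0.625, 0.702, 0.611 and 0.906 for batches 1 to 4. Pairs from different batches among 1 to 3 had r = 0.465 to 0.741, so same-batch pairs did not stand apart there. Pairs of batch 4 with batches 1 to 3 had r = -0.825 to -0.636. The group means include batch 4, which sets the libraries of batches 1 to 3 on the same side. These r values therefore cannot test the pairing, which rests on the labels. The labels do not say that replicates are separate animals, so p-values measure only the spread between these samples. No library pair of a host agreed within sampling noise (smallest chi-square per degree of freedom 9.59). Positions, lengths and 50-base words come from GENCODE vM21 (GRCm38, the assembly of mm10).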

Additional observations from a re-analysis of the deposited data

Results flagged for a closer look

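Log2 CPM of each of the 10 genes was examined in each host, 20 groups of 4 libraries, for a library far from the other 3. In 1 group the gap passed the limit: S100A11 in the NOD library of batch 3, at -0.24 log2 CPM (4 reads) against 0.70 to 0.80 in the other NOD libraries. Chance flags about 1 in 20 groups.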

How the results depend on the processing

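No alternative, each library left out in turn included, called any of the 6 or 7 of these genes that it tested, and neither did the edgeR fit with no filter, the only one to test all 10. DESeq2 gave no adjusted p for S100A10 without the block, nor for ANXA2, LGALS1 and AHNAK with it. These genes could not be called in those fits. Over all tested genes edgeR called 0 without a batch term and 0 with the replicate block over all batches or without batch 1, 2 or 3. The calls were 32 with the block in batches 1 to 3, 27 in DESeq2 with the block and 9 in limma voom with the block. The signs of CRIP1, ANXA2, LGALS1 and VIM held with the replicate block and every other tool or scaling, but limma voom without the block moved VIM to -0.47, ANXA2 to 0.30 and LGALS1 to -0.022. AHNAK, at 0.01, turned to -0.084 with the block, to -0.017, -0.29 and -0.19 with the block and batch 4, 2 or 3 left out, to -0.039 with no filter, to -0.074 in DESeq2 with the block, and to -0.37 and -0.14 in limma voom without and with it. S100A10, at 0.17, turned to -0.070 without batch 4 (with or without the block), to -0.017 without batch 1 (with the block) and to -0.083 in limma voom. Leaving out 1 library without a batch term, log2 fold changes ran from -1.06 to 1.14 for S100A10, -0.42 to 1.15 for CRIP1, -0.61 to 0.35 for LGALS1, -0.29 to 0.23 for AHNAK, -0.55 to -0.066 for VIM and 0.39 to 0.87 for ANXA2, and the median of the 6 from -0.48 (without NOD replicate 4) to 0.54 (without B16A replicate 4). Those 2 fits keep batch 4 in 1 host only. The cause of the other changes was not tested. Genes with few reads limit what can be seen: S100A4, S100A6, S100A11 and ANXA1 had at most 66 reads in a library.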
